A study of Homo sapiens with 20 samples.

Results

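The ligands and receptors of the tumor necrosis factor (TNF) superfamily were followed in TPC-1 cells, a line from a human papillary thyroid carcinoma. Members were the protein-coding rows of the RNA-seq count table whose symbol begins with TNFSF or TNFRSF and a number, together with TNF, LTA, LTB, FAS, FASLG, CD40, CD40LG, CD70, CD27, LTBR and NGFR. This gave 44 genes of 54261 features. The rule uses symbols and no measured value, but the family was chosen with earlier results of these data known. For 6 libraries TPC-1 cells shared a culture with PMN-MDSCs, the neutrophil-like branch of the myeloid-derived suppressor cells that restrain T cells, for 48 h, and 4 control libraries are of untreated TPC-1 cells. The sources used here do not give how the cells were kept together, where the PMN-MDSCs came from or whether they were removed ahead of lysis. All libraries are of 1 line with no stated genetic change, and no label calls them separate cultures. Each p-value therefore rests on the spread among these samples alone, and that spread may be technical.

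As background, the ligands of this family are trimeric proteins, mostly anchored in the membrane of immune cells, and each binds a small set of receptors with cysteine-rich outer domains. Receptors with a death domain can recruit caspases and start cell death, whereas the others bind TRAF adaptors and switch on NF-kB, which in turn raises the transcription of several of the adaptors and inhibitors of the same pathway. Decoy receptors bind a ligand and pass on no full signal. Carcinoma cells are known to carry many of the receptors and few of the ligands.

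Library totals ran from 40237801 to 48197608 counts. PAX8, a thyroid transcription factor, was at 496 to 522 CPM (counts scaled to a common library total) in the controls and 507 to 769 in coculture. NKX2-1, another thyroid factor, had 1 count over all libraries, and TG, the thyroid hormone precursor, was at 0.271 to 2.78 CPM. Coculture 1 and 2 stood apart on the first principal component of all tested genes, which held 47.7% of the variance, with scores of -51.4 and -47.7 where the remaining 8 libraries scored 0.137 to 20.6.

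TNFRSF9 (CD137), TNFRSF1B (the inducible TNF receptor) and TNFSF14 (LIGHT) were higher in coculture, about 4.61-fold, 5.04-fold and 22.5-fold by the fitted change. The most abundant receptors, TNFRSF12A, TNFRSF10B, TNFRSF1A and LTBR, had fitted changes from -0.08 to 0.21 on the log2 scale. With edgeR's quasi-likelihood test, 3 of the 22 members with enough counts to test were higher and 0 lower at an adjusted p under 0.05, with Benjamini-Hochberg adjustment over all 15629 genes tested. Over all those genes 1.14% were called higher and 0.186% lower, 1.32% in either direction. The other 19 tested members were not called. At an unadjusted p under 0.05 there were 6 higher and 1 lower members, where 6.07% and 3.58% of all genes tested were. DESeq2 and limma-voom also called 0 members lower. The median log2 fold change was -0.00064 for the 22 tested members and 0.0082 for all genes tested. The 22 members include genes that passed the count filter by their coculture counts, such as TNFSF14, and are not all 44.

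**Figure D1:**
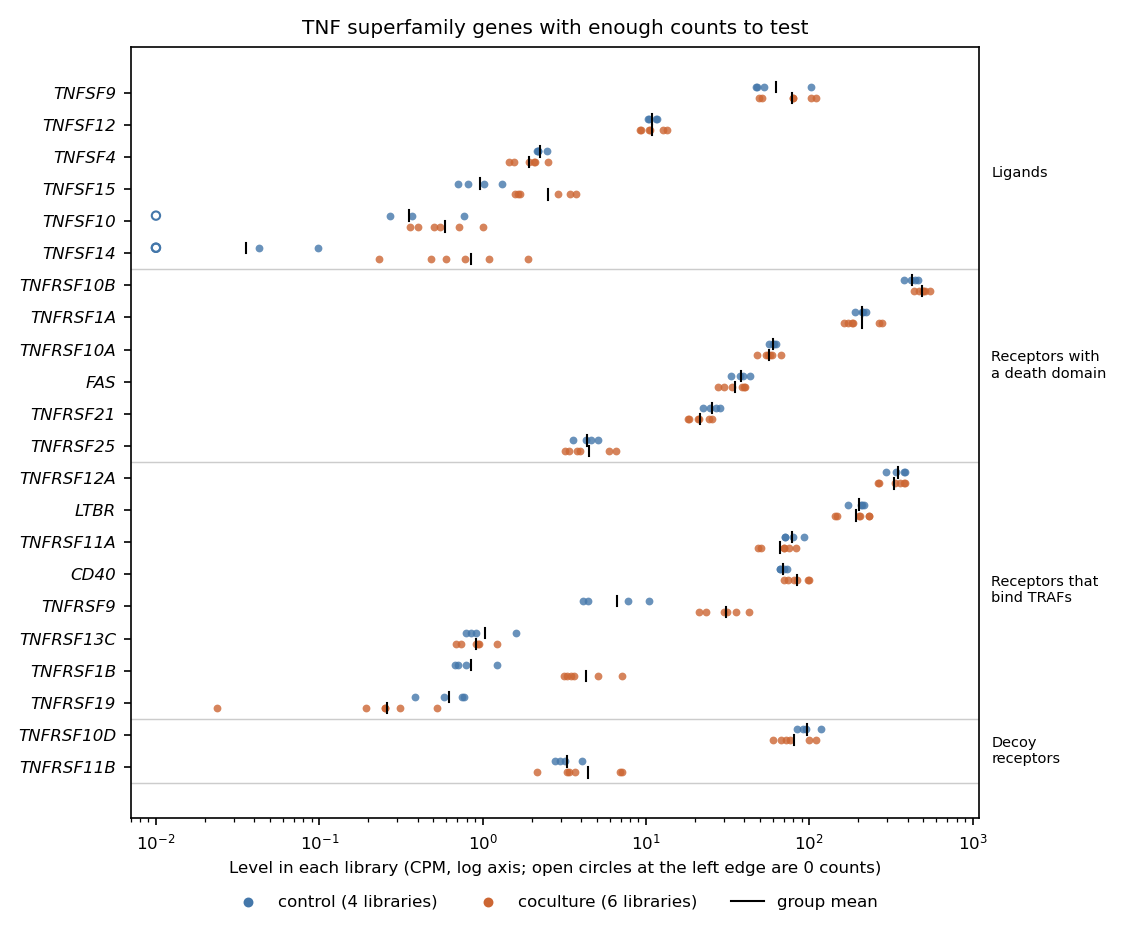
Level of the 22 tested members in each library, in CPM on a log axis, grouped by role; points are libraries and black ticks group means. TNFRSF9, TNFRSF1B, TNFSF14 and TNFSF15 show coculture points wholly above the control points, while the abundant receptors at the right overlap.

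TNFRSF9 encodes a receptor best known on activated T cells, where it gives a costimulatory signal through TRAF1 and TRAF2. The 4 controls were at 7.75, 10.4, 4.39 and 4.13 CPM, and the 6 coculture libraries ran from 21.2 to 43 CPM with a median of 30.8. The lowest coculture library was thus above the highest control. The mean was 30.7 ± 7.98 CPM (SD, n = 6) in coculture and 6.67 ± 2.99 (n = 4) in the controls, and the log2 fold change was 2.20 ± 0.29 (SE) with an edgeR adjusted p of 0.00152. With each library left out in turn it stayed between 2.03 and 2.50, and the highest edgeR adjusted p was 0.0102. The deposited table places the gene on chromosome 1 from 7915871 to 7943165, on the minus strand.

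TNFRSF1B binds TNF and lymphotoxin alpha, has no death domain and is expressed mainly by blood and endothelial cells. Controls were at 1.22, 0.791, 0.703 and 0.678 CPM, and coculture libraries ran from 3.16 to 7.13 with a median of 3.55. No coculture library reached down to the controls, and coculture 1 and 6 were the highest. Its log2 fold change was 2.33 ± 0.30 (SE; means 4.29 ± 1.55 and 0.847 ± 0.252 CPM) with an edgeR adjusted p of 0.00127, and 2.13 to 2.56 on leaving out any single library. The gene spans 12166948 to 12209222 on the plus strand of chromosome 1 in the deposited table.

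TNFSF14 encodes LIGHT, a ligand of LTBR and of TNFRSF14 that is best known from T cells and myeloid cells. Its counts in the controls were 2, 4, 0 and 0, equal to 0.0427, 0.0989, 0 and 0 CPM. Coculture libraries held 11 to 79 counts, with the lowest at 0.232, a median of 0.69 and the highest at 1.90 CPM in coculture 6. The groups did not overlap, and the log2 fold change was 4.49 ± 0.83 (SE) with an edgeR adjusted p of 0.0174. With so few control counts the size is poorly set, with a 95% confidence interval of 2.68 to 6.30. The call was lost without control 1 (edgeR adjusted p = 0.0796), control 3 (0.0711) or control 4 (0.0749). TNFSF14 lies on chromosome 19 from 6658126 to 6670595, minus strand.

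TNFSF15 (TL1A), a ligand of the death domain receptor TNFRSF25 that NF-kB is known to induce in endothelial and myeloid cells, did not overlap between the groups either. Controls were at 1.03, 1.31, 0.703 and 0.813 CPM and coculture libraries at 1.58 to 3.76 with a median of 2.31. Coculture 4, 5 and 6 were at 2.91 CPM or more, and coculture 1, 2 and 3 at 1.71 or less, just above the highest control. The log2 fold change of 1.38 ± 0.32 (SE) had an edgeR adjusted p of 0.0693, which did not pass. It passed without coculture 1 (adjusted p = 0.0387), without coculture 3 (0.0487), without coculture 1 and 2 (0.00734), with no filter on low counts (0.0263) and with DESeq2 (0.00193), and over the other alternatives the adjusted p went up to 0.275. In all, 4 tested members had coculture libraries wholly above the controls and 0 wholly below, where 2.45% and 1.17% of all genes tested did.

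**Figure D2:**
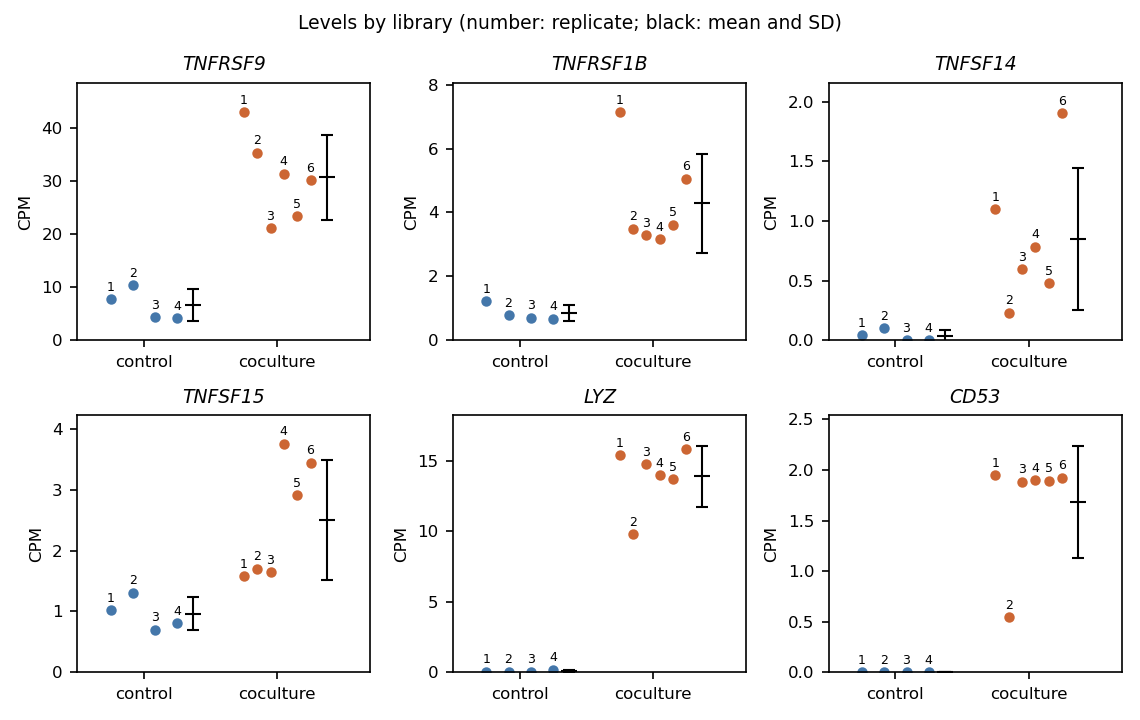
Level in CPM of the 4 members whose groups did not overlap, and of the myeloid genes LYZ and CD53, in each library; numbers are replicates, and black marks give mean and SD. Within coculture, TNFSF14, LYZ and CD53 were lowest in library 2, whereas TNFRSF9 was lowest in 3, TNFRSF1B in 4 and TNFSF15 in 1; the highest library was 1 for TNFRSF9, TNFRSF1B and CD53, 4 for TNFSF15, and 6 for TNFSF14 and LYZ.

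The same coculture libraries held RNA of white blood cells. LYZ, the lysozyme of myeloid cells, was at 0.0427 to 0.203 CPM in the controls and 9.79 to 15.8 in coculture, with coculture 2 lowest and coculture 6 highest. CD53, a tetraspanin of leukocytes, had 0 counts in each control and was at 0.547 CPM in coculture 2 and 1.88 to 1.95 in the other 5. Of the 15 neutrophil markers on the list used here 3 were tested and 3 were higher, namely S100A9, ITGAM and LYZ. They had 1, 3 and 15 counts over the controls and 235, 297 and 3540 over coculture. All 3 passed the count filter by their coculture counts, so the filter left little room for any other call. Over all genes tested 1.14% were called higher. The summed level of the 15 was 0.0641 to 0.226 CPM in the controls and 10.8 to 18.9 in coculture, with LYZ the largest part. S100A8, too low to test, had 0 counts over the controls and 53 over coculture, with counts in every coculture library. S100A12, CSF3R, MPO, OLR1 and CEACAM8 had at most 11 counts over coculture. FCGR3B, CXCR1, CXCR2, ELANE, ARG1 and MMP8, defining genes of neutrophils and their precursors, were at 0 in all 10 libraries. Of 10 pan-leukocyte genes 9 were tested and 7 higher (summed level 148 to 170 CPM in controls and 161 to 220 in coculture). Most of that sum was LAPTM5, which was not called, at 133 to 156 CPM in controls and 127 to 168 in coculture. Of 12 monocyte and macrophage genes 4 were tested and 3 higher (80.3 to 102 and 89 to 175 CPM). Most of this sum was CD68, also not called, at 79.4 to 101 and 82.8 to 169 CPM. On the same list C1QA was at 0 in all 10 libraries. C1QB, C1QC, CD163, FCGR1A and VSIG4 had at most 9 counts over coculture. MARCO had 15 counts over the controls and 29 over coculture, and MS4A7 had 0 and 54. Among the genes called, CD53, TYROBP, CD52 and MRC1 had 0 control counts and CD14 had 15. These too passed the filter by their coculture counts. No T and NK cell gene (10) and no B and plasma cell gene (6) had enough counts to test, with summed levels up to 0.940 and 4.04 CPM in coculture and up to 0.0247 and 0.198 in the controls. Of 8 fibroblast and endothelial genes 3 were tested and 0 called (2.90 to 142 CPM in coculture and 3.10 to 6.05 in controls), and of 10 epithelial and thyroid genes 7 were tested and 0 called (1184 to 1292 and 1046 to 1182 CPM). Per kilobase of transcript, the mean coculture level of LYZ was 9.17 CPM per kilobase and that of CD53 1.07, beside 5.12 for TNFRSF9, 1.13 for TNFRSF1B, 0.375 for TNFSF15 and 0.173 for TNFSF14. The part of white blood cell RNA in the rises of these members was not tested. In bulk RNA, more cells of a type and more RNA per cell cannot be told apart.

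The sequences just upstream of the 3 members called higher are shown, and a shared control of these genes was not tested. Beside them is that of TNFAIP3, an NF-kB induced gene that also rose and was picked for display because it holds the motif. RefSeq promoters of build GRCh38.p14 were matched by symbol for 28 of the 44 members. Where a symbol had several starts, only the first listed was used (27305 of 35116 promoters). The 250 bases before the start used were searched on both strands for GGGNNTTTCC, a form of the NF-kB site. The motif was chosen after the TNFRSF9 sequence had been read, and matches on either strand are in capitals as they read on the strand of the gene. The windows are chr1:7940840-7941089, minus strand, chr1:12166741-12166990, plus strand, chr19:6670161-6670410, minus strand and chr6:137867009-137867258, plus strand. A gene can have other starts: the windows of TNFRSF9, TNFSF14 and TNFAIP3 lie inside the span that the deposited table gives for each gene, and that of TNFRSF1B reaches into it.
TNFRSF9: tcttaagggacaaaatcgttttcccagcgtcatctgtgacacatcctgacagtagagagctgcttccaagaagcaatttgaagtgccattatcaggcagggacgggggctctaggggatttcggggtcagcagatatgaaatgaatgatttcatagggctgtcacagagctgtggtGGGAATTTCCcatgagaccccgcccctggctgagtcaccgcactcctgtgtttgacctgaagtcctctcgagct
TNFRSF1B: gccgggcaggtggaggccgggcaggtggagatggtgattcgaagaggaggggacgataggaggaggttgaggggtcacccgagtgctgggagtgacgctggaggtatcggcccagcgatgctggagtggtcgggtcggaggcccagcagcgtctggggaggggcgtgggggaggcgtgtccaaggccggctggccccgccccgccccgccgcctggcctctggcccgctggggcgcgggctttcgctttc
TNFSF14: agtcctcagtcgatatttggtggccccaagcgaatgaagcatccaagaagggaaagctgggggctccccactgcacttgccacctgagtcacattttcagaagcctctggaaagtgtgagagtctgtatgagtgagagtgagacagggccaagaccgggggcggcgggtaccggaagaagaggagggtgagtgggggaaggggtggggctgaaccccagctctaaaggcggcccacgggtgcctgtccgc
TNFAIP3: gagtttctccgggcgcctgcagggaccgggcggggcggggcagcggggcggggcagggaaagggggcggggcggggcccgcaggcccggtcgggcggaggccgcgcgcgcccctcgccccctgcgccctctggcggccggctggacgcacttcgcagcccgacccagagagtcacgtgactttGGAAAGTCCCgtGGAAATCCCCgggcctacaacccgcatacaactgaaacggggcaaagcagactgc

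TNFRSF9 had 1 match, GGGAATTTCC, beginning 74 bases before the start, and TNFAIP3 had a pair of matches read on the opposite strand, GGAAAGTCCC at 67 and GGAAATCCCC at 55 bases before it. No stretch of these letters stood in the windows of TNFRSF1B and TNFSF14. Of the 4 pathway genes called higher, 2 held the motif, TNFAIP3 and BIRC3, and TRAF1 and TNIP1 did not. The TNIP1 window, chr5:151065132-151065381 on the minus strand, lay inside the gene, whose deposited span ends at 151087660. Its lack of a match does not cover other starts of TNIP1. Over the pathway list 3 of 34 promoters held it (8.82%), and the remaining match was in TRAF3, which was not called. Of the 28 members with a promoter, 2 held the motif (7.14%), TNFRSF9 and LTB, and 1.73% of all 27305 promoters did. The motif was chosen after the TNFRSF9 sequence had been read, so the TNFRSF9 match was given by that choice. The expression of LTB cannot be read from these counts. The share among members therefore cannot show whether the motif is more frequent in this family. The looser form GGGNNNNNCC, which contains the first, stood in 21 of the 28 members (75%) and in 53.7% of all promoters. A match describes letters and not a bound site.

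Among the other ligands, TNFSF9, the partner of TNFRSF9, was the most abundant in these cells. Controls were at 53, 103, 47 and 48.1 CPM, and coculture libraries ran from 49 to 110 with a median of 79.5. The groups overlapped, control 2 being nearly as high as the highest coculture libraries (log2 fold change 0.33 ± 0.28 (SE), edgeR adjusted p = 0.751). Counts of the ligand per count of its receptor, with no correction for length, went from 6.83 to 11.6 in the controls and from 1.14 to 4.71 in coculture, with coculture 1 and 2 at 1.14 and 1.45. The receptor was already called higher, so this ratio is not a separate result. TNFSF12 (TWEAK), the ligand of TNFRSF12A, was at 11 ± 0.725 CPM in controls and 11 ± 1.77 in coculture. TNFSF4 (OX40L), a T cell costimulator, was at 2.25 ± 0.15 and 1.94 ± 0.387 CPM, and its receptor TNFRSF4 had 5 counts over the controls and 19 over coculture. TNFSF10 (TRAIL), which triggers cell death through TNFRSF10A and TNFRSF10B, was at 0.769, 0.371, 0 and 0.271 CPM in controls and 0.361 to 1.01 in coculture, with a wide 95% confidence interval of -0.65 to 2.11 for its log2 fold change.

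Levels between genes can be compared only per length, here as CPM per kilobase of the transcript length in the deposited table. In the controls TNFRSF12A (Fn14), the TWEAK receptor, led at 339 ± 42.4 CPM per kilobase (SD, n = 4). TNFRSF10B at 103 ± 8.98, TNFRSF1A at 93.9 ± 6.11 and LTBR at 89.1 ± 8.72 followed, and their ranges of mean ± SD overlapped. Then came CD40 at 41.2 ± 1.95, TNFSF9 at 37.7 ± 16.1, TNFRSF10A at 34.4 ± 1.55 and TNFRSF10D at 27.5 ± 4.07, of which TNFSF9 overlapped its neighbours. TNFRSF11A was at 15.4 ± 1.98, TNFRSF21 at 7 ± 0.733, TNFSF12 at 6.75 ± 0.446 and FAS at 5.23 ± 0.564 CPM per kilobase. TNFRSF9 stood at 1.11 ± 0.497 in the controls and at 5.12 ± 1.33 in coculture, close to FAS at 4.78 ± 0.732 there. TNFRSF1B stayed low per length also in coculture, at 1.13 ± 0.408 CPM per kilobase.

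Receptors with a death domain gave 0 higher and 0 lower calls among 6 tested genes. TNFRSF10B, the TRAIL receptor also called DR5, was at 465, 444, 422 and 378 CPM in controls and 435 to 546 in coculture with a median of 496, a log2 fold change of 0.21 ± 0.09 (SE; edgeR adjusted p = 0.445). Its libraries overlapped only between 435 and 465 CPM. TNFRSF10A, the other full TRAIL receptor, was at 60.2 ± 2.72 CPM in controls and 57 ± 6.47 in coculture. Counts of TNFRSF10B per count of TNFRSF10A, a ratio singled out after its values were seen, were 6.68 to 7.38 in controls and 7.77 to 10.7 in coculture, without overlap. These paralogs share sequence, and the sources used here do not give how reads common to both were counted. RHOBTB2 overlaps TNFRSF10B on the other strand with 11728 counts over all libraries, against 200108 for TNFRSF10B.

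TNFRSF1A, the broadly expressed TNF receptor that starts both NF-kB and death signals, had nearly equal means of 209 ± 51.8 CPM in coculture and 209 ± 13.6 in controls. The coculture libraries behind that mean fell into a high pair, coculture 1 and 2 at 269 and 281 CPM, and 4 libraries at 164 to 185, all below the lowest control at 190. Without that pair the log2 fold change was -0.26, with an edgeR adjusted p of 0.0905. Counts of TNFRSF1A per count of TNFRSF1B were 183 to 315 in controls and 36.6 to 80.3 in coculture. TNFRSF1B was already called higher, so this ratio is not a separate result. FAS, the receptor of FASLG, was at 38.4 ± 4.14 CPM in controls and 35.1 ± 5.37 in coculture. TNFRSF21, a death receptor known from neurons and T cells, was at 25.5 ± 2.67 and 21.4 ± 2.96 CPM, and TNFRSF25, the TNFSF15 receptor, at 4.38 ± 0.623 and 4.47 ± 1.43. For TNFRSF21 too, coculture 3 to 6, at 18.2 to 21.2 CPM, were below the lowest control at 22.2. Without coculture 1 and 2 its log2 fold change was -0.39, with an edgeR adjusted p of 0.0735. ACTA2 overlaps FAS on the other strand with 10943 counts, and PLEKHG5 overlaps TNFRSF25 on the same strand with 10841.

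Among receptors that bind TRAFs, 2 of 8 tested genes were higher, TNFRSF9 and TNFRSF1B, and 0 were lower, beside 1.14% and 0.186% of all genes tested. CD40, whose ligand comes from activated T cells, was at 66.4, 65.8, 72.7 and 70.4 CPM in controls and 70.2 to 99.1 in coculture with a median of 82.3. Coculture 1 and 2 were the highest at 98.6 and 99.1, and the log2 fold change was 0.29 ± 0.11 (SE; edgeR adjusted p = 0.359). LTBR, the lymphotoxin beta receptor that also binds LIGHT and drives the noncanonical NF-kB pathway, was at 202 ± 19.8 CPM in controls and 194 ± 39.7 in coculture. TNFRSF12A was at 350 ± 43.8 and 332 ± 54, and TNFRSF11A (RANK), the receptor of the osteoclast factor TNFSF11, at 78.8 ± 10.1 and 66.4 ± 13.7. TNFRSF13C, the BAFF receptor, was near 1 CPM in both groups. TNFRSF19, an orphan receptor of epithelial stem cells, had the most negative fitted change, -1.24 ± 0.49 (SE), at 0.385 to 0.766 CPM in controls and 0.0238 to 0.527 in coculture. It was not called (edgeR adjusted p = 0.413).

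Of the decoy receptors, TNFRSF10D, a TRAIL receptor with a truncated death domain, was at 97.4 ± 14.4 CPM in controls and 80.9 ± 19.6 in coculture, and TNFRSF11B (osteoprotegerin), a secreted decoy for TNFSF11 and TRAIL, at 3.27 ± 0.57 and 4.43 ± 2.10. Coculture 1 and 2 held TNFRSF11B at 6.97 and 7.14 CPM and the other 8 libraries at 2.15 to 4.08. Neither was called (edgeR adjusted p = 0.647 and 0.694). Counts of the TRAIL death receptors TNFRSF10A and TNFRSF10B together, per count of the decoys TNFRSF10C and TNFRSF10D, were 4.28 to 5.75 in controls and 4.90 to 9.16 in coculture, with overlap. TNFRSF6B, the soluble decoy for FASLG, LIGHT and TNFSF15, had 6 counts over the controls and 19 over coculture.

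**Figure D3:**
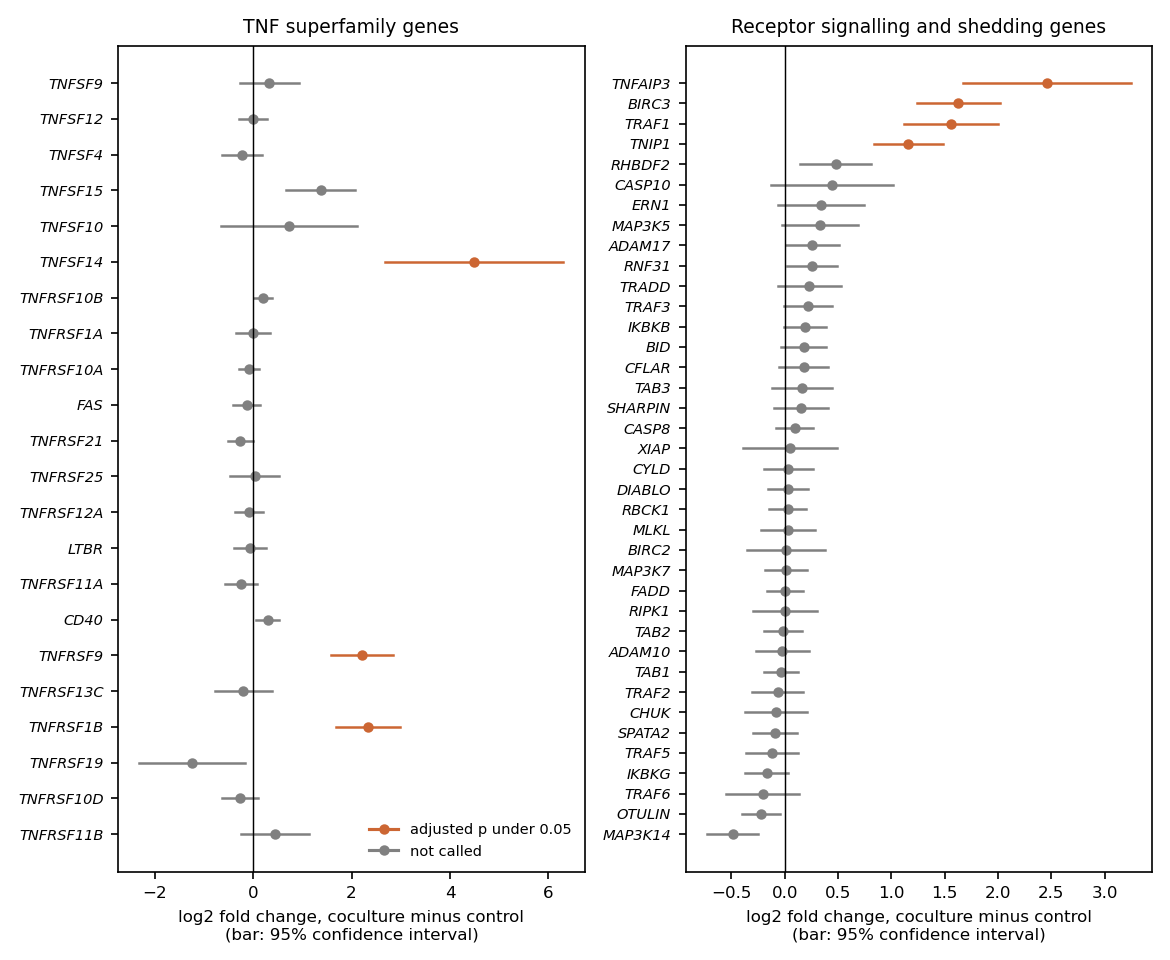
Log2 fold change, coculture minus control, with its 95% confidence interval, for the 22 tested members at the left and the 38 tested signalling and shedding genes at the right. The 3 and 4 genes past the threshold are in orange, and most other intervals include 0.

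TNF itself, LTA and LTB, the 3 members inside the major histocompatibility complex of chromosome 6, could not be read from this table. TNF and LTB were listed at 0 in all 10 libraries and LTA had 2 counts over the controls and 2 over coculture. Genes beside them that nearly every cell expresses, named after their values were seen, were just as empty. DDX39B, an RNA helicase, CLIC1, an abundant chloride channel protein, LSM2, a splicing factor, VARS, the valyl-tRNA synthetase, and NELFE, a subunit of an elongation factor, had 0 counts over all libraries. CSNK2B, a subunit of casein kinase, had 1 and BAG6, a chaperone, had 4. Of 57 protein-coding genes within 500 kilobases of TNF, 46 had up to 10 counts over the 10 libraries (80.7%), against 28.4% of all 20148 protein-coding genes. HLA-C in the same stretch had 25325. The 0 of TNF and LTB is a listed value, from which their expression in these cells cannot be read.

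**Figure D4:**
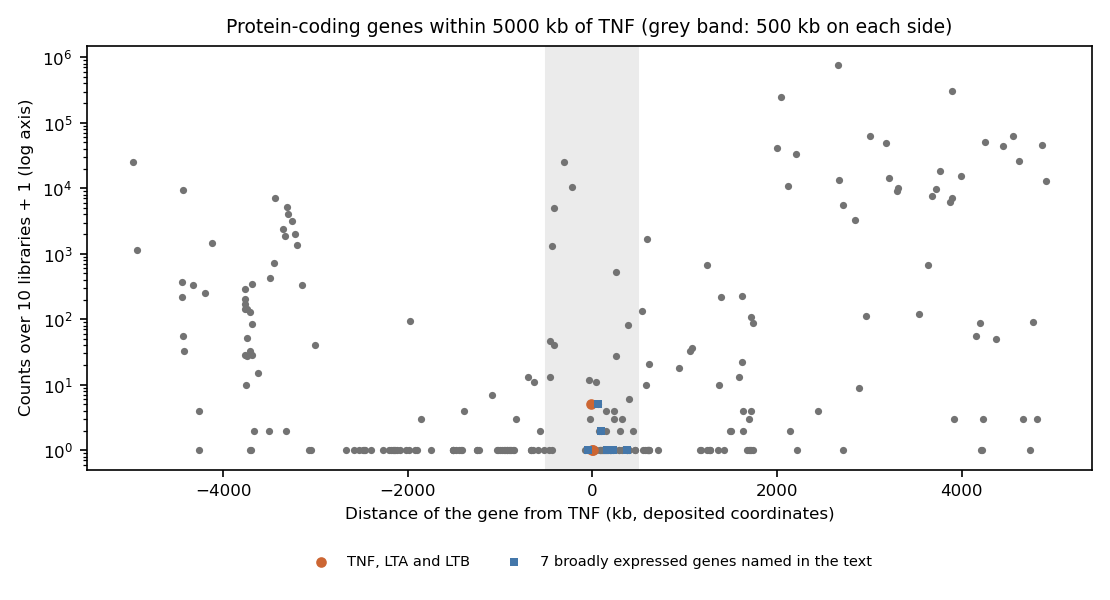
Counts over the 10 libraries plus 1, on a log axis, of protein-coding genes by their distance from TNF; the grey band spans 500 kilobases on each side. TNF, LTA and LTB in orange sit at the bottom with the 7 broadly expressed genes named in the text, in blue.

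The 22 members left out of the test had few counts in this table. Of these, 5 were listed at 0 in every library, namely TNF, LTB, CD40LG, TNFSF11 and the readthrough gene TNFSF12-TNFSF13, and 17, LTA among them, had 3 to 77 counts over the 10 libraries and no library above 0.437 CPM. Leaving aside TNF, LTA and LTB, which cannot be read here, a library with 0 counts allows up to 3, or 0.0632 to 0.0758 CPM, by counting error alone. TNFSF12-TNFSF13 overlaps TNFSF12 (4718 counts) and TNFSF13 (77) on the same strand. How reads common to them were counted is not given, so this limit may not hold for it. The ligands FASLG (33 counts over coculture and 21 over controls), CD70 (29 and 20), TNFSF13 (40 and 37) and TNFSF13B (33 and 13) were among them, as were the receptors CD27 (51 and 24), TNFRSF14 (25 and 22) and TNFRSF17 (35 and 16). NGFR, the neurotrophin receptor, had 19 and 20 counts in coculture 1 and 2 and at most 6 in any other library, and coculture 1 also held 18 of the 58 counts of the decoy TNFRSF10C. CD27-AS1 overlaps CD27 on the other strand with 788 counts over all libraries, more than the 75 of CD27. TAPBPL overlaps CD27 on the same strand with 1647, and LOC254896 overlaps TNFRSF10C on the same strand with 1551. ARFRP1 overlaps TNFRSF6B on the other strand with 35305, against 25 for TNFRSF6B.

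TNFRSF13B (TACI), a receptor of B cells and plasma cells, and TNFRSF18 (GITR), a receptor of T cells, each had 0 counts in the 4 controls and 15 in coculture. Of the 15 counts of TNFRSF13B, 13 were in coculture 4, at 0.309 CPM. That library also held the highest levels of the B cell genes CD79A at 1.02 CPM, CD79B at 0.618 and JCHAIN at 0.666, where the other 9 libraries had at most 0.16, 0.183 and 0.147. The TNFRSF18 counts were 8 in coculture 1, 4 in coculture 4 and 3 in coculture 6. Both group means were below the floor of 3 counts per library, so no fold is given.

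Coculture 1 and 2 stood beyond the other 8 libraries for 11 of the 22 tested members. CD40, TNFRSF11B, TNFRSF1A, TNFRSF25, TNFRSF9 and TNFSF12 were above (27.3%), and FAS, LTBR, TNFRSF10A, TNFRSF11A and TNFRSF12A below (22.7%). Over all genes tested 22.4% were above and 22.3% below, so the members moved with these libraries about as often as genes in general. Without them the 3 calls held, with log2 fold changes of 1.98 for TNFRSF9, 2.13 for TNFRSF1B and 4.63 for TNFSF14, and TNFSF15 was called as well. Coculture 1 also held 50.8 CPM of COL1A2, a collagen of fibroblasts, where the other 9 libraries had at most 0.303.

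**Figure D5:**
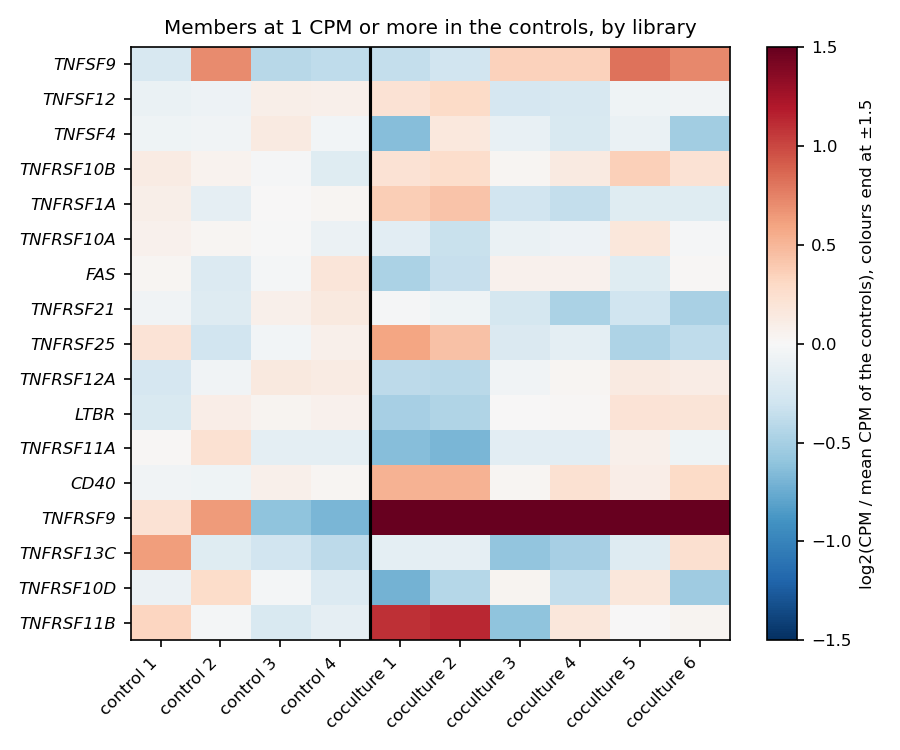
Log2 ratio of each library's CPM to the mean of the controls, for the tested members at 1 CPM or more in the controls. TNFRSF9 was above the control mean in each coculture library, and coculture 1 and 2 differ from coculture 3 to 6 for TNFRSF1A, TNFRSF25, CD40, TNFRSF11B, LTBR and TNFRSF11A.

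Downstream of the receptors, a list of 39 adaptors, kinases, ubiquitin enzymes, death effectors and shedding enzymes had 38 tested genes, of which 4 were higher, 0 lower and 34 not called, where 1.14% and 0.186% of all genes tested were called higher and lower. At an unadjusted p under 0.05 there were 7 higher and 2 lower (6.07% and 3.58% of all genes). DESeq2 called MAP3K14 lower, limma-voom none. The median log2 fold change of the list was 0.04. TNFAIP3 (A20), a ubiquitin-editing enzyme that shuts off NF-kB signals, was at 2.96 to 7.79 CPM in controls and 16.6 to 43 in coculture with a median of 19.2, a log2 fold change of 2.46 ± 0.36 (SE; edgeR adjusted p = 0.00352). TRAF1, the adaptor that TNFRSF9 and TNFRSF1B both bind, was at 2.62 to 3.39 CPM in controls and 5.79 to 11.5 in coculture with a median of 8.54 (1.56 ± 0.20 (SE), edgeR adjusted p = 0.00145). BIRC3, a ubiquitin ligase bound to TRAF2, was at 11.5 to 15.5 and 29.2 to 60.2 CPM, and TNIP1, the partner of A20, at 126 to 134 and 215 to 372. In each of these 4 genes, and in RHBDF2, every coculture library was above every control, as in 2.45% of all genes tested.

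The other parts of the receptor complexes differed less. The adaptors and death effectors TRADD, FADD, RIPK1, CASP8, CFLAR, BID and MLKL were not called, with FADD, the death domain adaptor, at 132 CPM and 133 CPM in controls and coculture, RIPK1 at 48.3 and 48.5, and CASP8, the initiator caspase, at 33.6 and 35.8. RIPK3, the necroptosis kinase, had 0 counts in the controls and a mean of 0.0395 CPM in coculture, below the floor. TRAF2, TRAF3, TRAF5 and TRAF6 were not called either. MAP3K14 (NIK), the kinase of the noncanonical pathway that LTBR, CD40, TNFRSF12A and TNFRSF11A activate, was at 26.3 to 30.5 CPM in controls and 16.3 to 24.1 in coculture, without overlap (log2 fold change -0.49 ± 0.11 (SE), edgeR adjusted p = 0.0598). ADAM17, which sheds TNF and its receptors from the membrane, was at 49.6 ± 8.77 and 59.4 ± 4.38 CPM, and RHBDF2, which carries ADAM17 to the cell surface, at 30.5 ± 2.91 and 42.5 ± 9.59, and neither was called (edgeR). The family relatives outside the symbol rule were EDA2R at 23 ± 1.97 and 17.6 ± 2.53 CPM, RELT at 36.8 ± 3.07 and 37.5 ± 4.56, EDA at most at 0.215 CPM in any library, and EDAR with 2 counts in all.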

How the data were processed

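RNA was measured in 6 coculture and 4 control libraries, grouped by title. The authors deposited raw counts per gene symbol with coordinates and a transcript length per gene. GRCh38.p10, BWA and HISAT2 2.0.4 are listed without a role, per the submitters' processing notes. The sources used here do not give the counter, the annotation or the strand setting, so overlapping genes, antisense genes and close paralogs are uncertain. The miRNA table was not used, and 0 value columns of the gene table were left unused.

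Counts were fitted in R 4.3.3 with edgeR 4.0.16 (TMM, filterByExpr by group, robust glmQLFit, glmQLFTest) on the whole table, which left 15629 genes. Benjamini-Hochberg adjustment ran over them at a threshold of 0.05. The SE is the log2 fold change divided by the square root of F, and confidence intervals are 95%. Principal components used log2(CPM + 0.5). Alternatives were RLE size factors, DESeq2 1.42.0, limma-voom (limma 3.58.1), no filter, each library left out, coculture 1 and 2 left out and a replicate block. The scripts were tested on simulated counts. No pair of libraries agreed within sampling noise (smallest chi-square per degree of freedom 7.17).

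The members and lists were chosen with earlier results of these data known. Named with values were members called, members with a mean of at least 5 CPM, members with 0 control counts and at least 10 in coculture, and their ligands or receptors, all called pathway genes with the 4 of lowest adjusted p, and leading markers. Other genes given for their level, and the overlapping genes, were named after their values were seen. Intervals and floors of 3 counts cover counting error only, since no molecular identifiers are stated.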

Additional observations from a re-analysis of the deposited data

Results flagged for a closer look

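Within a group, a library was looked for whose gap to its nearest neighbour took up an unusually large share of the group's range, over 44 groups of members, of which chance gives about 1 in 20. In 3 groups such a library was found, all in the controls. TNFSF9 was at 102.8 CPM in control 2 and at 47 to 53 in the other 3 controls. TNFRSF13C, the BAFF receptor, was at 1.60 CPM in control 1 and 0.791 to 0.915 in the others, and TNFSF4 at 2.47 CPM in control 3 and 2.16 to 2.19 in the others. Without control 2 the log2 fold change of TNFSF9 was 0.67 in place of 0.33, and it was still not called by edgeR (adjusted p = 0.420).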

How the results depend on the processing

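Across 16 alternatives TNFRSF9 and TNFRSF1B were called higher in each, TNFSF14 in 12 and TNFSF15 in 5; members called lower stayed at 0. Over all genes, 178 were called higher and 29 lower; DESeq2 gave 333 and 106, and leaving out coculture 1 and 2 gave 210 and 112. Leaving out each library in turn gave 112 to 204 higher and 4 to 36 lower, lowest for both without control 4, and 0 to 1 pathway gene lower. MAP3K14 was the 1 pathway gene lower with DESeq2, without coculture 1 and 2 and without coculture 5. Same-numbered libraries did not deviate together in each pair (r = 0.386, -0.083, 0.253 and 0.174 for numbers 1 to 4), so the numbers were not taken to pair them. With a replicate block, 100 genes were higher and 10 lower, 2 members and 3 pathway genes were higher, TNFSF14 and TNFAIP3 had edgeR adjusted p-values of 0.139 and 0.0781, and the log2 fold changes of TNFRSF1A (0.041) and TNFSF12 (0.0090) changed sign. Signs also changed for TNFRSF25 with limma-voom (-0.011) and, without coculture 1 and 2, for LTBR (0.10), TNFRSF11B (-0.081), TNFRSF12A (0.045) and TNFRSF25 (-0.31). With single libraries left out, the log2 fold change ran from -0.13 to 0.014 for LTBR, -0.31 to 0.091 for TNFRSF13C, -0.10 to 0.063 for TNFRSF1A, -0.11 to 0.11 for TNFRSF25 and -0.067 to 0.045 for TNFSF12, all uncalled. The cause of these changes was not tested. Comparisons with the reported value were tallied for the 22 tested members and the 4 called pathway genes, and so without MAP3K14. Of these, 380 kept direction and side of the threshold, 26 changed sign, 5 gained the call, all for TNFSF15, and 5 lost it. Depth limits what can be said of members below 3 counts a library (0.0632 to 0.0758 CPM) and of the size of the TNFSF14 change.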
